A study of Mus musculus with 10 samples.

Results

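The 5 genes described here, Rpp25, Crabp2, Lilrb4, Nefh and Gemin4, are among the genes whose reads were lowest, relative to freshly activated CD8+ T cells, once mouse T cells had spent a further day in keratinocyte medium or with keratinocytes. They were selected by name from an earlier ranking of those same T-cell contrasts, so their low values after activation are how they were chosen and not a finding. All 5 were found under these names, among 25814 genes, in each of the 10 libraries. The values that chose them are given as a description with no test. What the choice did not use is described in more depth: how many of the reads were unique to the gene, which other genes lie on the same bases, what keratinocytes expressed, and how the partner genes of each of the 5 behaved.

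The study asked how keratinocytes and CD8+ T cells change each other's transcription. Poly(A) RNA of 5 groups of cells from C57/B6 mice was sequenced, with 2 libraries in each group. Activated T cells were splenic CD8+ cells, isolated with microbeads and stimulated for 1 d with antibodies against CD3 and CD28. T cells in medium had the same stimulation followed by 1 d in a keratinocyte medium, a mix low in calcium of keratinocyte SFM and X-VIVO 15. Co-cultured T cells had the same stimulation followed by a day on keratinocytes, for which the sample titles and the study's text give 1 d and the deposited design text 1 h. Keratinocytes came, per the deposited design text, from the tails of adult mice (the study's methods also name newborn mice, with no mention of which were sequenced) and were collected alone or after co-culture, when the T cells had been washed off. The deposited design text speaks of 2 experiments run in parallel, but nothing says that the 2 libraries of a group came from separate animals, so p-values measure the spread between these samples, which may be technical. By the sample titles, the medium and the time since stimulation change together between activated T cells and both later T-cell groups. Their parts cannot be told apart. A legend of the study has pre-activated T cells cultured for 1 d in X-VIVO medium, without saying whether this was a further day. In such bulk samples fewer cells that express a gene and less of its RNA per cell cannot be told apart either.

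Stimulation through the T-cell receptor and CD28 drives a resting CD8+ T cell into growth and division, with a rise in the machinery that processes RNA and builds ribosomes, and many of the genes it turns on are turned off again once the stimulus ends. The 5 genes belong to different systems. Rpp25 is a protein subunit of RNase P and RNase MRP, the RNA-protein enzymes that trim precursors of transfer RNA and ribosomal RNA, and Gemin4 is a component of the SMN complex, which loads Sm proteins onto spliceosomal small nuclear RNAs. Crabp2 binds retinoic acid in the cytoplasm and delivers it to nuclear receptors, and it is a well known gene of epidermis. Lilrb4 is an inhibitory receptor of leukocytes with tyrosine motifs that recruit phosphatases, and Nefh is the heavy chain of neurofilaments, known from axons.

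The sequences that matter most for reading these data are the stretches that Lilrb4 and Gemin4 share with other genes, since a read from such a stretch names no single gene. Reads were 59 bases long. The stretches below have that length, lie in coding sequence and are written 5′ to 3′ on the strand of the gene, from the GENCODE vM21 transcripts (GRCm38). The pair of Lilrb4 and its copy Lilr4b that comes first is identical, at chr10:51491861-51491919 and chr10:51481567-51481625, both on the + strand.
Lilrb4: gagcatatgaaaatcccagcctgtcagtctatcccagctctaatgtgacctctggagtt
Lilr4b: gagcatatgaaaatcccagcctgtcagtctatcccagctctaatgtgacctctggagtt
The first stretch lies within Lilrb4a, a longer gene over the same place. The next pair, at chr10:51491445-51491503 and chr10:51481151-51481209, differs at 2 of 59 bases, shown in capitals. A read from here can be told from Lilr4b by these letters alone. Lilrb4a holds most stretches of Lilrb4, but whether its transcripts hold these 2 is not shown here.
Lilrb4: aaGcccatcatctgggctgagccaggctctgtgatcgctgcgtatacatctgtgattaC
Lilr4b: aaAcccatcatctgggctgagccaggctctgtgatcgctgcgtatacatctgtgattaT
The following stretch of Gemin4, at chr11:76213865-76213923 on the - strand, is part of a transcript of Glod4 on the same strand and, read on the opposite strand, of a transcript of Fam57a.
Gemin4: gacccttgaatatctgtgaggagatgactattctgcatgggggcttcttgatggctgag

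Of the 1572 different stretches of 59 bases in the coding transcripts of Lilrb4, 93.5% also occur in a transcript of another gene, 91.4% in the gene the files call Lilrb4a and 24.9% in Lilr4b. For Gemin4 the share was 94.7% of 3482 stretches, with 94.6% in Glod4 and 81.1%, on the opposite strand, in Fam57a. No stretch of Rpp25 (1365), Crabp2 (873) or Nefh (3873) occurred in a transcript of another gene. The 5 genes fall into 3 whose reads can be placed and 2 whose reads mostly cannot.

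The deposited counts showed the same division. Each table gives, beside the total exon reads of a gene, the exon reads that mapped to it uniquely. All 329 reads of Rpp25, all 39644 of Crabp2 and all 3780 of Nefh in the 10 libraries were unique. Of the 332 reads counted for Lilrb4, 3 were unique (0.904%), and of the 1695 for Gemin4, 43 were (2.54%). Among the 11863 genes tested in T cells, 514 (4.33%) had under 10% unique reads, and among the genes that passed the test as lower this was 11 of 501 in medium and 14 of 678 in co-culture (2.2% and 2.06%), beside 2 of these 5. How reads that fit several genes were divided among them is not given in the sources used here.

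In the annotation of the files (GRCm38), Rpp25 (ENSMUSG00000062309) is a gene of 1 exon at chr9:57504026-57505448 on the + strand. Crabp2 (ENSMUSG00000004885) has 4 exons at chr3:87948666-87953376 on the + strand, and Nefh (ENSMUSG00000020396) has 4 exons at chr11:4938754-4948064 on the - strand. Lilrb4 (ENSMUSG00000112148, chr10:51490956-51496611, + strand) lies inside Lilrb4a (ENSMUSG00000062593, chr10:51480612-51496613), which also spans the neighbouring copy Lilr4b (ENSMUSG00000112023, chr10:51480632-51486703). GENCODE vM21 gives the same coordinates but other names, Lilrb4a for the first and Gm49339 for the second, and 93.3% of the exon bases of Lilrb4 are also exon bases of the second. Gemin4 (ENSMUSG00000049396, chr11:76210571-76217664, - strand) lies inside Glod4 (chr11:76120987-76243725, - strand), which holds 94.7% of its exon bases, and overlaps Fam57a (chr11:76179671-76214827, + strand). Coding transcripts of Fam57a share 0% of those exon bases, and its counted exon length, 2446 bases, equals that of its coding transcripts. The stretches of Gemin4 found in Fam57a come from a search of all its transcripts, coding or not.

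RefSeq promoters (GRCm38.p6, the 250 bases before the RefSeq start) were found for Rpp25 and Gemin4. In the annotation of the files, where both genes start earlier, 76 of these bases of Rpp25 and 92 of Gemin4 lie past the gene start, inside the gene. The windows were searched on both strands for the letters of 5 motifs: GGAAA (NFAT-type), TGANTCA (AP-1-type), ACGTG (hypoxia-type), GCGTGGGCG (EGR-type) and TATAAA. The window of Rpp25 held 1 match, to ACGTG, which lies in the part inside the gene, and that of Gemin4 held 0. Among all 32851 promoters, 16.6% hold ACGTG. The other motifs stood in 55.6%, 6.7%, 0.5% and 12.4% of all promoters. Both windows were rich in G and C (62.4% and 62.8%, median of all 52.4%). A match is a description of letters only. Crabp2, Lilrb4 and Nefh were not in the promoter table.

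The ranking that chose the genes can be placed as follows. Genes with an adjusted p under 0.05 (edgeR), a mean of at least 5 RPKM in either group and no overlap of the libraries were ordered by log2 fold change against activated T cells. In medium this gave 470 genes, led by Ak4, Vegfa and Il3, with Rpp25 at rank 4, Crabp2 at rank 5, both inside the top 5, and Lilrb4 (-7.91) and Zc3h8 (-6.77) just outside. Nefh and Gemin4 were not among the 470. In co-culture it gave 635 genes, with Gemin4 at rank 1, Il3 at 2, Lilrb4 at 3, Nefh at 4 and Ak4 (-6.94) at 5. Ifng (-6.77) and Rpp25 (-5.96) were just outside at ranks 6 and 7, and Crabp2 stood at rank 123. By the adjusted p alone, 3 of the 5 genes were lower in medium, where 4.22% of all genes tested were, and 5 of 5 in co-culture, where 5.72% were. These counts follow from the choice and carry no weight of their own.

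Rpp25 was present in activated T cells and at 0 to 17 reads in the 8 other libraries. It had 166 and 139 reads in the activated libraries, 0 and 0 in medium and 4 and 0 in co-culture. Its level was 6.94 and 6.78 RPKM in activated T cells, a mean of 6.86 ± 0.112 (SD, n = 2), and the activated libraries lay apart from every other library. Since 3 reads is the floor used for a count of 0 (for counting error only), the RPKM in medium was at least 53.0-fold lower, and in co-culture it was 74.3-fold lower on 4 reads. The fitted log2 fold changes were -10.14 (SE 1.71) in medium and -5.96 (SE 1.25) in co-culture, and the first depends on how a count of 0 is handled. Keratinocytes had 3 and 0 reads alone and 17 and 0 after co-culture, so the level in keratinocytes after co-culture, 0.393 ± 0.556 RPKM, in T cells after co-culture, 0.0923 ± 0.1305, and in keratinocytes alone, 0.0555 ± 0.0785, overlapped between libraries. As Rpp25 has 1 exon, no read crosses a splice junction and reads of the gene cannot be told from reads of genomic DNA.

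Crabp2 was high in keratinocytes as well, where its level (615 ± 361 RPKM alone) was 13.1-fold that of activated T cells. It had 741 and 620 reads in activated T cells (47.35 and 46.2 RPKM, mean 46.8 ± 0.790, SD, n = 2), 5 and 0 in medium and 72 and 75 in co-culture. The 3 T-cell groups did not overlap. The fitted log2 fold change was -7.93 (SE 0.90) in medium and -2.92 (SE 0.66) in co-culture, or 269-fold and 8.69-fold lower by mean RPKM. Co-cultured T cells had 31.0-fold more than T cells in medium (5.39 ± 0.435 against 0.174 ± 0.246 RPKM, log2 fold change 5.02, SE 0.85). In activated T cells 345 of 1361 reads crossed a splice junction and 0 lay in introns, so spliced RNA was among them.

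The summed keratinocyte markers moved with that difference, though not every marker did. The summed level of 8 keratinocyte markers (Krt5, Krt14, Krt6a, Krt17, Trp63, Dsp, Sfn, Col17a1), all measured, was 103.5 and 214.5 RPKM in co-cultured T cells, 5.75 and 10.45 in medium, 17.45 and 20.6 in activated T cells and 21260 to 26370 in keratinocytes. In activated T cells nearly all of this sum was Sfn (16.6 and 19.2 RPKM), while Krt5 was at most 0.253 RPKM. In co-cultured T cells most of the sum was Krt14, Krt6a and Krt17. Sfn, with 5.78 and 3.64 RPKM there, overlapped with medium. Trp63 was at 0 in 1 of 2 co-cultured libraries, and Col17a1 was at 0.0118 and 0.0379 RPKM. Per 1000 RPKM of these markers, Crabp2 amounted to 15.0 to 41.0 RPKM in the 4 keratinocyte libraries and to 23.7 and 55.0 in the co-cultured T cells. The same quotient was 2714 and 2240 in activated T cells, far above any keratinocyte library. Of the co-cultured T-cell libraries 1 thus lay within the range of keratinocytes and 1 above it. The medium libraries had 33.3 and 0, on 5 and 0 reads of Crabp2 and marker sums that were mostly Sfn (9.39 and 3.27 RPKM). The part of keratinocyte RNA in the co-culture value was not tested.

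**Figure D1:**
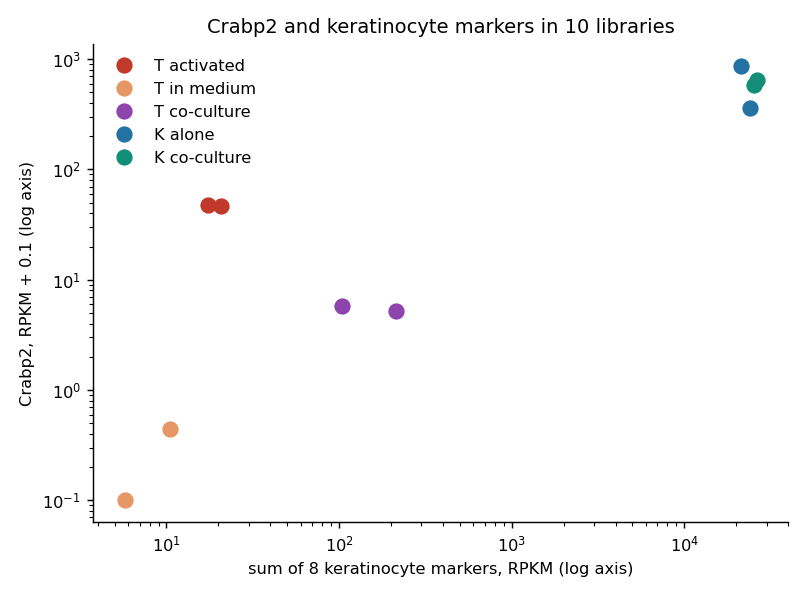
Level of Crabp2 (RPKM + 0.1, log axis) against the summed level of 8 keratinocyte markers (RPKM, log axis), with 1 point per library and a colour per group (T, T cells; K, keratinocytes). The 2 activated T-cell libraries hold 47.35 and 46.2 RPKM of Crabp2 at marker sums of 17.45 and 20.6, while the 2 co-cultured T-cell libraries hold 5.08 and 5.69 at 214.5 and 103.5.

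Nefh, named for neurons, was well above the other groups in both activated T-cell libraries. It had 3026 and 627 reads in activated T cells, 81 and 16 in medium and 22 and 0 in co-culture. In RPKM these were 45.1 and 10.9 (mean 27.98 ± 24.2, SD, n = 2), 1.31 and 0.232, and 0.362 and 0. The activated libraries lay above the others but differed widely from each other, and the medium and co-culture libraries overlapped. By mean RPKM Nefh was 36.2-fold lower in medium and 155-fold lower in co-culture, with fitted log2 fold changes of -5.05 (SE 1.25) and -7.07 (SE 1.40). Keratinocytes had 0 and 0 reads alone, at least 669-fold below activated T cells, and 4 and 4 after co-culture. Of 3653 reads in activated T cells, 53 crossed a splice junction and 0 lay in introns.

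Of the markers of neurons and glia, Tubb3, a tubulin of neurons, had 1.94 and 3.46 RPKM in activated T cells, 0.243 and 0.217 in medium and 0 and 0.416 in co-culture. Snap25, of synapses, and Sox10, of glia, were at 0 in both activated libraries. The library with more Tubb3 (3.46 against 1.94 RPKM) was the one with less Nefh.

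**Figure D2:**
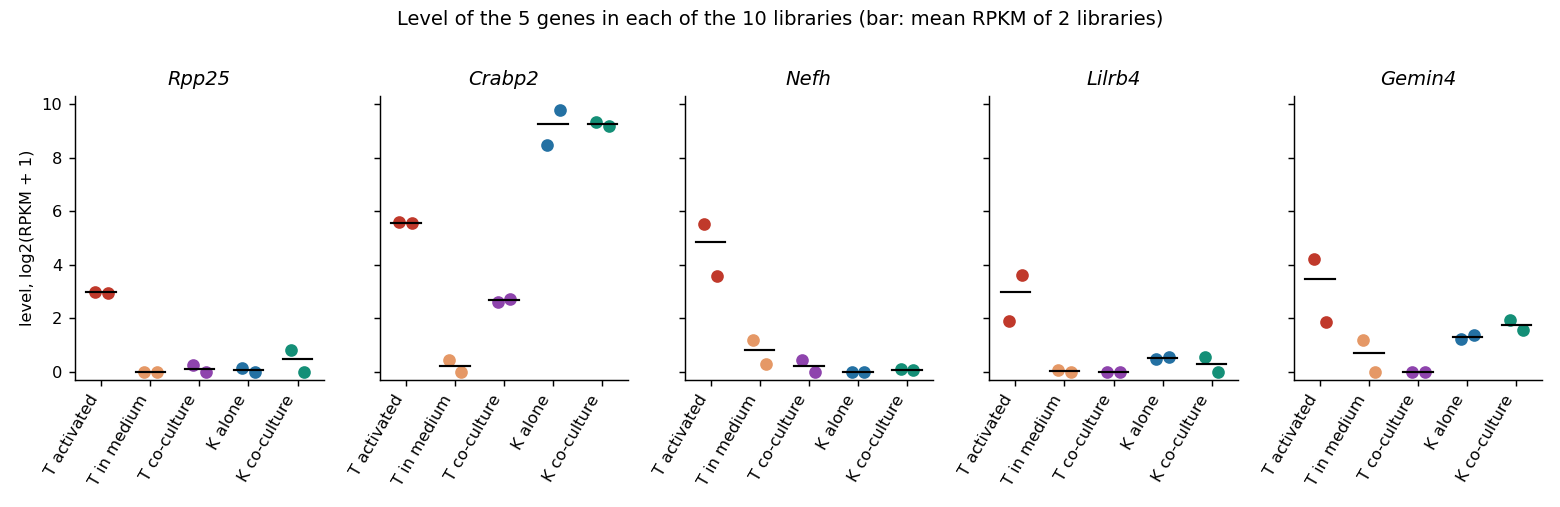
Level of the 5 genes, log2(RPKM + 1), in each of 10 libraries (points), with the mean RPKM of the 2 libraries of a group on the same scale as a bar (T, T cells; K, keratinocytes). The activated T cells lie above both later T-cell groups for all 5 genes, which is how the genes were chosen, and the 2 activated libraries lie together for Rpp25 (6.94 and 6.78 RPKM) and Crabp2 (47.35 and 46.2) and apart for Nefh (45.1 and 10.9), Lilrb4 (2.72 and 11.2) and Gemin4 (17.4 and 2.63).

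Lilrb4 was counted in activated T cells and hardly elsewhere, but the summed reads of the genes that share its bases differed far less. It had 66 and 232 reads in activated T cells (2.72 and 11.2 RPKM, mean 6.95 ± 5.97, SD, n = 2), 1 and 0 in medium and 0 and 0 in co-culture. On that 1 read the level in medium was 312-fold lower (95% exact counting interval 55.6 to 12370), and in co-culture at least 49.0-fold lower. Fitted log2 fold changes were -7.91 (SE 1.47) and -10.21 (SE 1.79). Of the 298 reads in activated T cells 3 were unique. Restricted to unique reads, Lilrb4 did not pass the filter on low counts in any fit.

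Lilrb4a, which covers the same exons, had a higher mean in both later groups without passing the test. Its level was 1.91 ± 1.32 RPKM in activated T cells, 3.17 ± 0.0299 in medium and 2.75 ± 0.776 in co-culture (log2 fold changes 0.90 and 0.72, edgeR adjusted p = 0.435 and 0.501), and 0 of its 645 reads were unique. Lilr4b had 113, 81 and 39 reads in the same 3 groups, with log2 fold changes of -0.45 and -1.26 (edgeR adjusted p = 0.844 and 0.477). Summed over the 3 genes, a sum chosen after these values were seen, there were 205 and 329 reads in activated T cells, 110 and 178 in medium and 115 and 86 in co-culture. Activated library 1 lay close above the highest later library, and the log2 fold change of the sum was -0.86 (SE 0.51) in medium and -1.19 (SE 0.51) in co-culture. Lilrb4 took 32.2% and 70.5% of the summed reads in activated T cells, and at most 0.909% in the other T-cell libraries, while the keratinocyte libraries gave it 68.8%, 16.2%, 66.7% and 0%. The keratinocyte shares are of 16, 74, 15 and 111 reads, so the share given to Lilrb4 also varied widely between libraries of 1 cell type.

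Receptors of this family are best known from myeloid cells. Of the myeloid markers, Lyz2 had 10.6 and 57.4 RPKM in activated T cells, 37.9 and 39.9 in medium and 31.4 and 33.6 in co-culture. Cd68 had 3.83 and 4.42, then 5.56 and 6.50, then 6.69 and 17.8 RPKM. Cd14 was at 0 in 1 activated and both co-cultured libraries. The activated library with 232 Lilrb4 reads was the one with more Lyz2, and it had 102 RPKM of Cd4 against 16.8. The part of myeloid cells in the Lilrb4 reads was not tested.

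Gemin4 had 1038 and 134 reads in activated T cells, 69 and 0 in medium and 0 and 0 in co-culture, rank 1 of the ordering above in co-culture. In RPKM these were 17.4 and 2.63 (mean 10.04 ± 10.5, SD, n = 2), 1.26 and 0, and 0 and 0, so the activated libraries lay above the others but apart from each other. The level in medium was 15.9-fold lower and in co-culture at least 174-fold lower, with fitted log2 fold changes of -3.88 (SE 1.59) and -11.97 (SE 2.88). Without the activated library of 1038 reads the fold change in medium was -2.03 (SE 1.91), and without the medium library of 69 reads it was -11.96 (SE 2.20). Unique were 27 of 1038 and 0 of 134 reads in activated T cells and 0 of 69 in medium. In unique reads the gene did not pass the filter in T cells.

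The 2 genes that overlap Gemin4, of which only Glod4 shares exon bases of its coding transcript, behaved differently. Glod4, a gene of glyoxalase type, had 18.7 ± 0.123 RPKM in activated T cells, 18.8 ± 4.64 in medium and 21.1 ± 4.75 in co-culture. Its unique reads, which numbered 612 and 737, then 998 and 1666, then 1135 and 1635, gave log2 fold changes of 1.03 (SE 0.43) and 1.33 (SE 0.43) with edgeR adjusted p = 0.180 and 0.0867, neither past the threshold. Fam57a had 4.16 ± 0.824, 1.41 ± 0.314 and 1.65 ± 1.01 RPKM (log2 fold changes -1.40 and -1.10, edgeR adjusted p = 0.231 and 0.310) and 87.6 ± 30.4 in keratinocytes alone. The sum of the 3 genes was 2840 and 1706 reads in activated T cells, 1371 and 2068 in medium and 1455 and 1901 in co-culture, so the groups overlapped and the log2 fold change was -0.30 (SE 0.37) and -0.10 (SE 0.37). Unique in these sums were 651 and 741 reads in activated T cells, 1001 and 1674 in medium and 1135 and 1637 in co-culture. The rest, the reads that were not unique, was thus larger in both activated libraries than in any later one. Gemin4 and Fam57a without Glod4 gave -2.85 (SE 0.72) and -3.24 (SE 0.74). Which of these genes the shared reads came from cannot be told apart, as Glod4 holds most of the same bases on the same strand. Fam57a shares 0% of the exon bases of Gemin4 in coding transcripts. Whether counting used strand, which may bear on Fam57a, is not given in the sources used here.

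**Figure D3:**
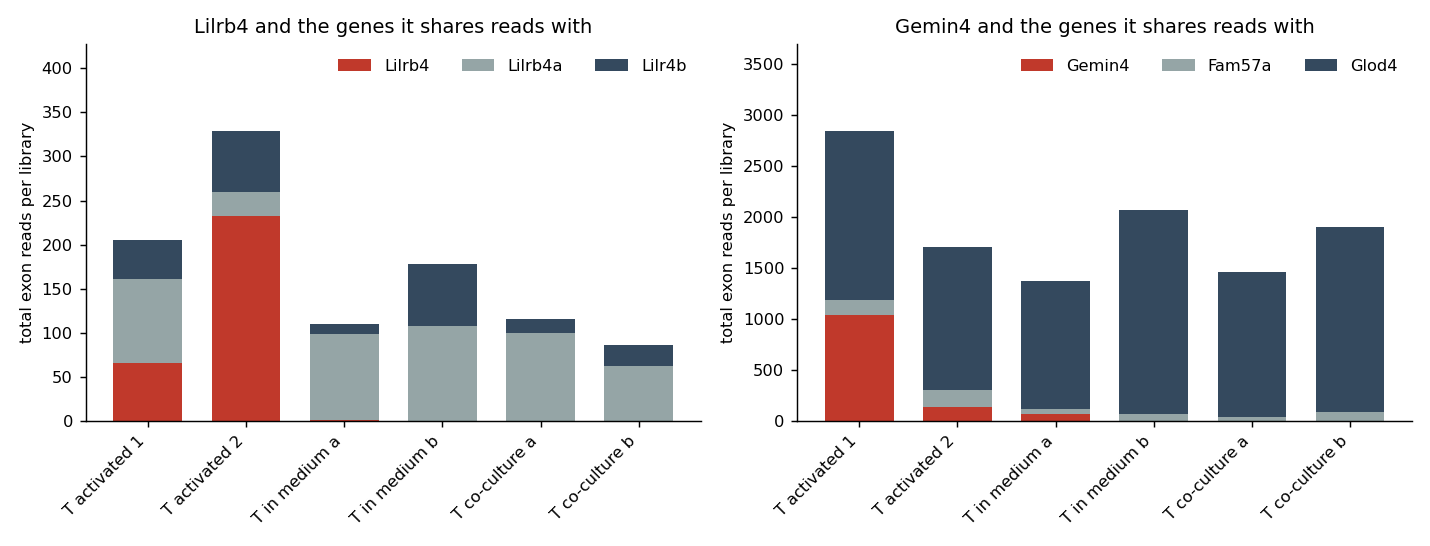
Total exon reads per T-cell library for Lilrb4, Lilrb4a and Lilr4b (left) and for Gemin4, Fam57a and Glod4 (right), stacked, with the later libraries of a group named a and b since the labels give them no number. Lilrb4 and Gemin4 are counted mainly in the activated libraries (66 and 232 reads, 1038 and 134 reads), while the summed bars go from 86 to 329 reads on the left and from 1371 to 2840 on the right.

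Keratinocytes took no part in the choice of the genes, so the change of the 5 in keratinocytes with co-culture could be tested. No gene of 12515 passed an adjusted p of 0.05 in this comparison (0% higher and 0% lower, edgeR), while 901 had an unadjusted p under 0.05, 3.08% of all as higher and 4.12% as lower. DESeq2 called 186. Without keratinocyte library 1 of the co-culture edgeR called 1164. The summed level of 8 T-cell markers in the keratinocyte libraries was 116 and 461 RPKM alone and 150 and 808 after co-culture. The list did not move as one: Cd3g had 34.8 to 246.8 RPKM in these 4 libraries, while Cd8a had 0.118 to 1.16 and Cd8b1 0.107 to 2.00, against at least 110 RPKM of Cd8a in every T-cell library. Cd4 had 11.4 to 84.5 RPKM. The part of RNA from T cells of any kind in the keratinocyte values was not tested. Crabp2, with 6360 and 13807 reads alone and 9069 and 8895 after co-culture (615 ± 361 and 610 ± 43.6 RPKM), had a log2 fold change of 0.04 (SE 0.52, edgeR adjusted p = 0.977). The libraries after co-culture lay inside the range of those alone, and the SE leaves room for a change of either sign. Gemin4, with 90 and 98 against 153 and 113 reads (1.48 ± 0.203 and 2.39 ± 0.642 RPKM), had 0.74 (SE 0.45, edgeR adjusted p = 0.659). Lilrb4, with 11 and 12 against 10 and 0 reads (0.445 ± 0.0614 and 0.228 ± 0.323 RPKM), had -0.95 (SE 1.67, edgeR adjusted p = 0.838). Rpp25 and Nefh were too low in keratinocytes to pass the filter. None of the 3 genes tested had an unadjusted p under 0.05.

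The partner genes of the 5 were taken from 5 lists of genes that work with them or resemble them, 99 genes without the members, of which 94 were in the files and 73 were tested in T cells. In medium 1 of the 73 was higher and 5 were lower (all genes: 2.32% higher, 4.22% lower), and in co-culture 1 was higher and 10 lower (4.59% and 5.72%). When co-culture was set against medium, 0 of the 73 passed in either direction (all genes: 0.261% higher, 0% lower, with 409 genes at an unadjusted p under 0.05, 1 of them in the lists, and 87 genes by DESeq2, 8 of them lower and 1 in the lists). In keratinocytes 0 of 75 passed, with 8 at an unadjusted p under 0.05 and 4 by DESeq2 (of all 12515 genes: 901 and 186). List medians there were 0.60 for RNase P and MRP, 0.54 for SMN and snRNP assembly and 0.83 for inhibitory receptors. They were -0.805 for retinoic acid and -0.76 for intermediate filaments (all genes 0.02). The calls in T cells rest on few libraries: without activated library 1 the lists held 0 calls in both comparisons with activated T cells. They also held 0 in medium without either medium library, 3 without activated library 2, and in co-culture 4 without co-cultured library a and 2 without b.

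Subunits of RNase P and RNase MRP, the partners of Rpp25, had mostly negative log2 fold changes. Of 11 tested, 1 passed as lower in medium and 4 in co-culture (all genes: 4.22% and 5.72%). In these comparisons 10 and 9 had a negative log2 fold change, and the median was -0.85 and -0.95 (all genes -0.01 in each). Rpp40 had 8.07 and 5.34 RPKM in activated T cells, 0.887 and 1.15 in medium and 1.12 and 1.66 in co-culture, with no overlap (log2 fold change -2.55, SE 0.49, and -2.04, SE 0.48, edgeR adjusted p = 0.0267 and 0.0356). Pop1, the largest protein of both enzymes, fell in co-culture (-3.17, SE 0.77, edgeR adjusted p = 0.0388) from 25.4 and 8.08 to 2.73 and 0.583 RPKM, and in medium it had -2.71 (SE 0.75) with edgeR adjusted p = 0.0709. Rpp38 fell in co-culture from 18.15 and 13.9 to 3.65 and 2.37 RPKM (-2.23, SE 0.48, edgeR adjusted p = 0.0268), as did Rpp14 (-1.58, SE 0.33, edgeR adjusted p = 0.0235). The paralogue Rpp25l, the most abundant of the list beside Pop5, had 37.9 and 42.7, then 23.4 and 28.8, then 21.8 and 28.3 RPKM (-0.48 in both, edgeR adjusted p = 0.504 and 0.464), with 9.16% of its reads unique. Rpp25l was thus counted in the T cells that had no read of Rpp25.

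Genes of the SMN complex and of snRNP assembly, the partners of Gemin4, had mostly negative log2 fold changes as well. Of 20 tested, 3 passed as lower in medium and 5 in co-culture (all genes: 4.22% and 5.72%). In these comparisons 17 and 16 had a negative log2 fold change, and the median was -0.98 and -1.09. Smn1, which encodes the central protein of the complex, had 68.1 and 62.0 RPKM in activated T cells, 15.6 and 16.1 in medium and 12.4 and 12.97 in co-culture (-1.88, SE 0.33, and -2.16, SE 0.34, edgeR adjusted p = 0.0214 and 0.0102). The SmD3 gene Snrpd3 (-1.66 and -1.90, edgeR adjusted p = 0.0261 and 0.0128) and Wdr77 (-2.20 and -1.89, edgeR adjusted p = 0.0210 and 0.0209) fell in both comparisons. Prmt5, the methyltransferase that works with Wdr77 on Sm proteins, fell in co-culture (-1.91, SE 0.47, edgeR adjusted p = 0.0405), as did Snrpb (-1.23, edgeR adjusted p = 0.0350). The 2 most abundant genes, Snrpf and Snrpe, had log2 fold changes of -0.04 and 0.28 in medium and 0.17 and 0.60 in co-culture and did not pass (edgeR adjusted p = 0.454 to 0.982), and 38.7% and 61.2% of their reads were unique.

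The other lists moved little as groups, with at most 1 call each per comparison. Of all genes, 4.22% and 5.72% passed as lower and 2.32% and 4.59% as higher in medium and co-culture. Of 15 genes tested for retinoic acid binding, synthesis, breakdown and reception, Fabp5, a lipid carrier that also binds retinoic acid, was the 1 that passed: it had 130 and 104 RPKM in activated T cells, 25.6 and 24.6 in medium and 32.6 and 44.3 in co-culture (-2.07, SE 0.35, and -1.39, SE 0.34, edgeR adjusted p = 0.0205 and 0.0416). The median of the list was -0.09 and -0.25, and the most abundant receptor, Rxrb, had 0.48 and 0.69 (edgeR adjusted p = 0.350 and 0.159). Of 19 genes for inhibitory receptors and their phosphatases, Pecam1 passed as higher, with 3.14 and 3.28 RPKM in activated T cells, 22.2 and 7.95 in medium and 18.35 and 7.39 in co-culture (2.34, SE 0.56, and 2.16, SE 0.55, edgeR adjusted p = 0.0474 and 0.0464), calls that were lost with library size in place of TMM. The receptors Cd5 (-0.29 in both) and Tigit (-0.04 and 0.39) were the most abundant and did not pass (edgeR adjusted p = 0.535 to 0.976), and the median of the list was -0.03 and 0.16. Of 16 intermediate filament genes and linkers in the list, 8 were tested in T cells. Of these 0 passed, with 1 unadjusted p under 0.05 in medium and 0 in co-culture and 0 by DESeq2. The neurofilament genes Nefm and Nefl and the related Ina and Prph did not pass the filter on low counts. The list thus holds no test of the other neurofilament chains. Vim had 71.8 and 229, then 173 and 193, then 184 and 230 RPKM, and Lmnb1 79.0 and 41.3, then 64.4 and 29.9, then 49.5 and 17.1, all with overlap. In the calls of all genes the share of higher genes in co-culture was 44.5%, and 34.2% with library size in place of TMM, which moved the median of all genes to -0.17 (medium -0.125). With library size the medians were -0.95 and -1.14 for RNase P and MRP, -1.10 and -1.27 for SMN and snRNP assembly, and -0.14 and 0 for the inhibitory receptors.

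**Figure D4:**
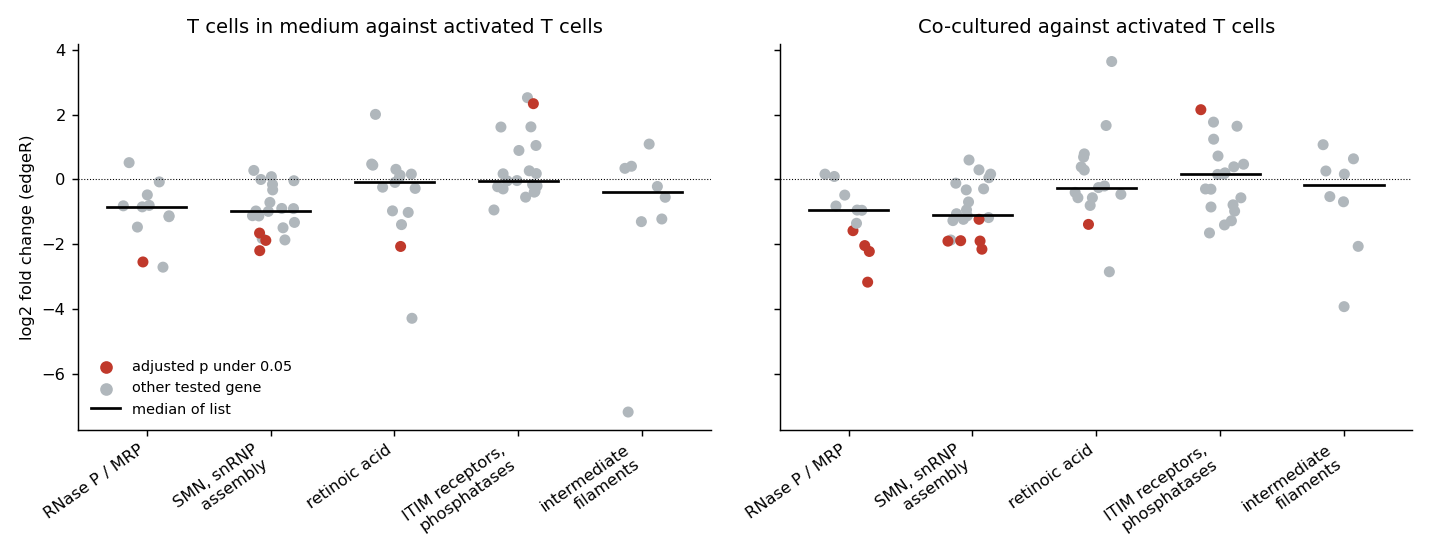
Log2 fold change (edgeR) of each tested partner gene in the 5 lists for T cells in medium (left) and co-cultured T cells (right) against activated T cells, with genes of adjusted p under 0.05 in red and the median of a list as a bar. Medians are -0.85 and -0.95 for RNase P and MRP and -0.98 and -1.09 for SMN and snRNP assembly, and between -0.38 and 0.16 for the other lists.

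Across the 10 libraries the 5 genes were not alike among themselves. On log2(RPKM + 1), Pearson's r was 0.924 between Nefh and Rpp25, 0.915 between Lilrb4 and Rpp25 and 0.745 between Gemin4 and Rpp25, while Crabp2 had -0.097 to 0.446 with the other 4. These are descriptions over libraries that fall into 5 groups. As 6 of the 10 are the T-cell libraries behind the choice, a high r between members follows in part from that choice. For Lilrb4 and Gemin4 the levels, and so r and the nearest genes, rest on reads that were mostly not unique. Among 11795 genes with a mean of at least 1 RPKM in a group, those nearest to Rpp25 were Nmt2, Rpf2 and Srsf11 (r = 0.989, 0.986 and 0.981), and nearest to Nefh Kcnq5, Zmynd19 and Gusb (0.990, 0.989 and 0.986). Crabp2 was nearest to Msmo1, Fabp5 and Slc25a1 (0.984, 0.980 and 0.980), Lilrb4 to Bdh2, Il1b and Smtnl2 (0.981, 0.972 and 0.972) and Gemin4 to Mtbp, Pole3 and Nol9 (0.982, 0.973 and 0.961). Rpf2 had 88.2 RPKM in activated T cells and 12.2 and 11.8 in the later groups, and Kcnq5 2.51, 0.314 and 0.194. Il1b, a cytokine best known from myeloid cells, had 1.31 RPKM in activated T cells and was at 0 in the later T-cell groups. As these genes were picked for a profile like that of a member, such levels restate the pick. Whether they come from the same cells as the member was not tested.

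The libraries held 12864931 to 18019609 exon reads, of which 78.2% to 87.2% were unique. The summed level of T-cell markers was 1539 to 3128 RPKM in T cells. B-cell markers summed to 16.6 to 92.3 RPKM in T cells, and mast cell, melanocyte and fibroblast markers to at most 4.93 there. Libraries of a group differed by far more than sampling noise, with a chi-square per degree of freedom of 89.1 to 199.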

How the data were processed

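Per the deposited labels and the study's methods, poly(A) libraries were sequenced as single-end reads of 59 bases and mapped to the mouse genome (GRCm38) with CLC Genomics Workbench; how reads that fit several genes were divided is not given in the sources used here. The authors deposited 1 table per library with whole-number counts (total, unique, exon-exon and intron reads per gene) and RPKM, written with decimal commas, which were read as decimal points. The depth was 12864931 to 18019609 exon reads.

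Total exon reads were tested with edgeR 4.0.16 (quasi-likelihood, TMM, filterByExpr, R 4.3.3) in 1 fit of the 6 T-cell libraries (11863 genes) and 1 of the 4 keratinocyte libraries (12515 genes), Benjamini-Hochberg adjusted over all genes, threshold 0.05. For 2 against 2 libraries an exact test of 1 value cannot go below p = 0.333. DESeq2 1.42.0, limma 3.58.1 on log2(RPKM + 1), other filters, unique reads and leaving out each library were alternatives. A count of 0 was given a floor of 3 reads per library for folds, and such floors and 95% intervals cover counting error only. The fit was tested on simulated data with 200 changed genes.

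The members, lists and tests were chosen with earlier results of these data known. Besides the members, named were the genes ranked just outside the 5 largest falls, called list genes (at most 3 in each direction), the 2 most abundant of each list, copies of Lilrb4, nearest neighbours and the 3 most alike genes. Other genes were chosen after their values were seen: Rpp14, Ak4, Vegfa and Il3, Snrpb, Glod4 and marker genes given singly. Libraries of T cells in medium and in co-culture carry no number in the labels, and a and b follow accession order. Sequences came from GENCODE vM21 and RefSeq. Some marker genes, and the sums that hold them, are not reported here.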

Additional observations from a re-analysis of the deposited data

How the results depend on the processing

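With 2 libraries per group each call leans on single libraries. All 5 members kept a negative log2 fold change against activated T cells under every alternative that gave a value (15 or 16 each). As these contrasts chose the genes, the kept sign follows from the choice and carries no weight of its own. In medium the ranges were -10.23 to -2.98 for Rpp25, -12.28 to -5.36 for Crabp2, -10.19 to -2.72 for Lilrb4, -6.63 to -3.76 for Nefh and -11.96 to -2.03 for Gemin4. In co-culture they were -10.14 to -2.85, -3.11 to -2.75, -10.84 to -2.75, -13.63 to -4.33 and -12.76 to -3.03. Without activated library 1 Nefh had -3.76 in medium. In co-culture, without library a, Rpp25 had -10.14 and Nefh -13.63, and in medium, without library a, Crabp2 had -12.28. Lilrb4 and Gemin4 gave no value on unique reads. The cause was not tested.

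Genes called, against 776 in medium, 1222 in co-culture, 31 between these and 0 in keratinocytes, numbered 1948, 2345, 87 and 186 with DESeq2 and 1945, 2425, 141 and 11 with no filter. With overlapping genes summed and no filter, an alternative added after seeing the data, they numbered 1946, 2426, 141 and 11. Between co-culture and medium there were 0 with at least 10 reads in every library, 81 and 113 with limma on log2(RPKM + 1) and log2(RPKM + 0.1), and 51 with limma and no filter. Leaving out 1 library gave 24 to 1067, 266 to 1093, 16 to 52 and 0 to 1164. List genes called, against 6, 11, 0 and 0, numbered 17, 17, 1 and 4 with DESeq2. With no filter, summed or not, the first 3 were 13, 17 and 1, and with limma on log2(RPKM + 1) the first was 10. Leaving out 1 library gave 0 to 8, 0 to 9, 0 to 0 and 0 to 9.

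The replicate number was kept as a block in keratinocytes alone, since the later T cells carry no number. The 2 pairs deviated together (r = 0.558 over 12515 genes), which is too few pairs to show that the numbers pair the samples. With the block 2 genes were called, both higher, and Crabp2 had 0.19 (SE 0.37, edgeR adjusted p = 0.776).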

Other observations

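Genes beside the 5 on the chromosome mostly did not pass the test in T cells. The nearest gene to the left of Crabp2, Isg20l2, which encodes an exonuclease, was lower in co-culture (log2 fold change -2.22, SE 0.58, edgeR adjusted p = 0.0492) and had -1.57 in medium (edgeR adjusted p = 0.134). Mrm3, to the right of Gemin4, had -1.87 and -2.28 (edgeR adjusted p = 0.107 and 0.0552). Nes, a filament gene to the right of Crabp2, had -7.19 (SE 2.50) and -3.93 (SE 1.95) with edgeR adjusted p = 0.133 and 0.236. Its level was low throughout, with a mean of 0.207 RPKM in activated T cells, 0 in medium and 0.0107 in co-culture. Beside Rpp25, Ppcdc had 1.41 in both (edgeR adjusted p = 0.152 and 0.131), and Cox5a had -0.08 and 0.16 (edgeR adjusted p = 0.920 and 0.799).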
